A study of Mus musculus with 41 samples.

Results

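TDG-deficient (TDG iKO) and control (TDG WT) Th2 cells were compared after their first cycle of differentiation by bisulfite sequencing (BS-seq) of the Il4 locus. These cells made up 6 of the 41 samples of the series, chosen by their labels for genotype, cycle and assay. Each genotype had 3 samples, but replicates 2 and 3 were 2 runs of 1 library, so the comparison rests on 2 libraries per genotype. Library 1 is the sample labelled replicate 1, and library 2 joins the samples labelled replicates 2 and 3, with levels averaged over the 2 runs and reads added up. The labels do not name animals, so the spread between libraries may be partly technical.

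Il4 encodes interleukin 4, the signature cytokine of Th2 cells, and several of its regulatory regions lose DNA methylation as naïve CD4+ T cells differentiate. TET enzymes oxidize the methyl group of 5mC in steps to hydroxymethyl (5hmC), formyl (5fC) and carboxyl (5caC) groups, and TDG, thymine DNA glycosylase, cuts 5fC and 5caC out of DNA so that repair restores an unmodified cytosine. Loss by dilution through replication does not need TDG. Bisulfite leaves 5mC and 5hmC to be read as C, while unmodified C, 5fC and 5caC are read as T. The level given here is the percentage of C among the reads with C or T at a CpG, the sum of 5mC and 5hmC.

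All mice were on a C57BL/6 background and were 8 to 16 weeks old. TDG iKO cells came from Tdg fl/fl mice with a Rosa26-H2B-EGFP/GPI-mCherry LSL reporter of Cre activity. Tamoxifen was injected into mice with Cre and into control mice, so both genotypes had been exposed to it. The labels name the control genotype only as wild type. Naïve CD4+ T cells were sorted from spleen and lymph nodes, with the reporter as a further mark in floxed lines. For the first cycle the labels give 2 days on plate-bound anti-CD3 and anti-CD28 (1 μg/ml) with anti-IFN-γ (1 μg/ml) and IL-4 (1000 U/ml), then 3 days in IL-2 (20 U/ml), where the methods of the study give 4 days. For comparison, BS-seq of naïve CD4+ T cells (3 libraries), of TDG WT and TDG iKO cells after a second cycle (2 libraries each) and of first-cycle TET WT and TET iTKO cells (2 libraries each) was used, with a further set of WT Th2 cells (3 libraries). TET iTKO cells come from mice with floxed Tet1, Tet2 and Tet3. The amplicons do not reach Tdg, so its deletion could not be checked in these samples. The study calls the induced deletion efficient and gives a qRT-PCR measure of the floxed Tdg exons in first-cycle Th2 cells.

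The amplicons covered 64 CpGs on the minus strand of chromosome 11, the strand of Il4, numbered along transcription from CpG1 in CNS1, a regulatory region 5′ of the gene, to CpG64 in CNS2, a regulatory region 3′ of it. Coordinates are those of mm9. The median number of reads per CpG was 1104 in library 1 and 5247 and 9119 in the runs of library 2 of TDG WT cells, and 536.5, 4336 and 7122 in the corresponding samples of TDG iKO cells. Library 1 of each genotype was thus the shallower one, and it was also the only one with CNS2, where library 2 had no reads. A CpG was compared when all 4 libraries had 100 or more reads. This left 46 CpGs: the 17 of CNS2 had 1 library per genotype, and CpG23 in exon 1 had 27 and 21 reads in library 1 of TDG WT and TDG iKO cells. Another CpG lay 1 base outside the exon 3 amplicon and was set aside. Cytosines outside CpGs, which show incomplete conversion, were read as C in 0.232%, 0.279% and 0.248% of reads in the TDG WT samples and in 0.246%, 0.403% and 0.373% in the TDG iKO samples, so both runs of iKO library 2 stood above the others.

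TDG iKO cells kept the methylation pattern of TDG WT cells along the locus, and no CpG differed between the genotypes past the test. Across the 46 CpGs the mean level was lower in TDG iKO cells at 33 and higher at 13, and the differences of means ran from -7.68 to 2.50 percentage points, with a median of -2.09. CpGs of CNS1, the promoter and exon 1 were mostly lower in TDG iKO cells, those of intron 1 and exon 2 mostly higher, and those of exon 3 within 1 point. A quasi-binomial regression of the levels, weighted by reads, takes the spread between libraries from 22 libraries of naïve and Th2 cells. It called 0 of 46 CpGs (0%) at an adjusted p under 0.05. The smallest adjusted p was 0.988, 0 CpGs had an unadjusted p under 0.05, and limma on log2 ratios also called 0. The 95% intervals of the fitted differences ranged in width from 7.89 to 37.4 points, and at the widest, CpG28, the interval reached from -19.4 to 17.9 points. The data therefore do not show that the levels were equal: at most CpGs a difference of several points in either direction lay within the interval.

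**Figure D1:**
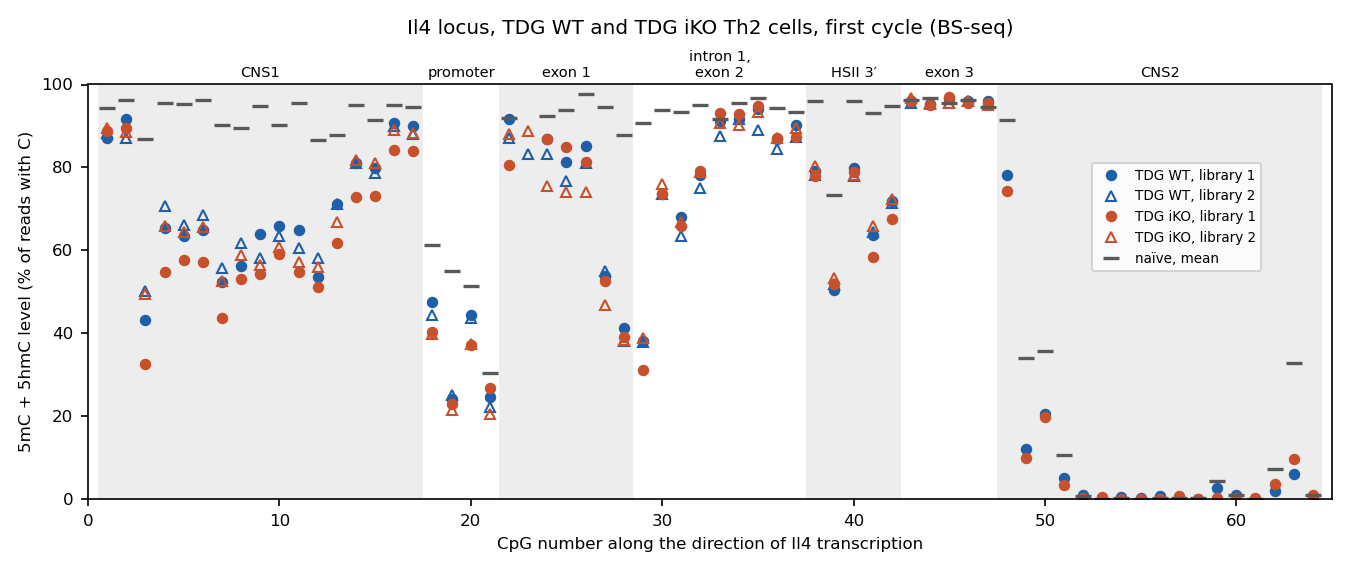
Levels of 5mC + 5hmC (y axis, % of reads with C) at the 64 CpGs (x axis) in the libraries of TDG WT (blue) and TDG iKO (red) Th2 cells after the first cycle, with filled circles for library 1 and open triangles for library 2 at 100 or more reads, and the mean of naïve libraries (grey dashes). Points of both genotypes follow the same course, low in the promoter and at CpGs 28 and 29, from 95.01% to 97.02% in exon 3 and near 0 in most of CNS2, which has points of library 1 only.

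A stricter description is whether both TDG iKO libraries lay on one side of both TDG WT libraries. Both lay below at 11 of 46 CpGs (23.9%) and above at 3 (6.52%). With 2 libraries against 2, a share of 0.3333 of all label arrangements separates a CpG fully in either direction, so a separation alone is not rare. The 11 were CpGs 9, 10, 11, 13 and 16 of CNS1, CpGs 18, 19 and 20 of the promoter, CpG27 in exon 1 and CpGs 44 and 47 of the exon 3 amplicon. The 3 were CpG1 in CNS1 and CpGs 32 and 36 in intron 1 and exon 2. These CpGs were singled out after their values were seen, and 0 of them passed the test. At 33 of the 46 CpGs the difference of means was smaller than the combined SD of the libraries.

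In CNS1 the mean over its 17 CpGs (chr11:53440236-53440800) was 69.7% and 70.4% in TDG WT and 63.1% and 68.96% in TDG iKO cells, libraries 1 and 2 in turn. Library 1 of TDG iKO cells was the lowest of the 4 and held the lowest level at 15 of 17 CpGs, while library 2 of TDG iKO cells came within 1.49 points of library 2 of TDG WT cells. The libraries of the genotypes did not overlap, and the means were 70.1% ± 0.522 (SD, n = 2) for TDG WT against 66.02% ± 4.15 (SD, n = 2) for TDG iKO cells. The difference was -4.05 points (95% interval -12.4 to 4.32), and the exact permutation test, two-sided, gave p = 0.3333, the smallest value that 2 libraries against 2 allow. It came mostly from library 1, where the difference was -6.62 points, and without library 1 of TDG iKO cells it was -1.12 points.

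CpGs 3 to 8 lie close together and are shown because CpG4 had the largest difference between genotypes of all 46 and CpG3 the lowest level of CNS1 in TDG WT cells. The minus strand at chr11:53440568-53440674, 5′ to 3′ from mm9, with CpGs 3 to 8 in capitals, reads:
CpGs 3 to 8: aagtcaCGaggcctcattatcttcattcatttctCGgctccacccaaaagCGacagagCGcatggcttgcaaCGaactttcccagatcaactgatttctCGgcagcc
At CpG4 (position 53440640) the level was 65.3% in library 1 and 70.9% and 70.3% in the runs of library 2 of TDG WT cells, against 54.7% in library 1 and 66.3% and 65.4% in the runs of library 2 of TDG iKO cells. Both TDG iKO libraries thus lay below the WT library of the same number, but library 2 of TDG iKO cells was above library 1 of TDG WT cells. The means were 67.9% ± 3.75 (SD, n = 2) for TDG WT against 60.3% ± 7.87 (SD, n = 2) for TDG iKO cells, with a fitted difference of -7.26 points (95% interval -18.3 to 3.76). At CpG3 (position 53440668) the level was 43.1% in library 1 and 49.98% and 50.2% in the runs of library 2 of TDG WT cells, against 32.7% in library 1 and 48.8% and 49.9% in the runs of library 2 of TDG iKO cells. Library 1 was the lower one in both genotypes, by 7.01 points in TDG WT and by 16.7 points in TDG iKO cells, in each genotype the widest gap between its libraries at any of the 46 CpGs. The 95% Wilson interval in library 1 of TDG iKO cells, which covers counting error only and is too narrow where several reads stem from 1 molecule, was 28.3% to 37.4% from 401 reads.

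Over CpGs 3 to 8, a range that the study names, the mean was 59.9% ± 3.23 (SD, n = 2) for TDG WT against 54.6% ± 6.81 (SD, n = 2) for TDG iKO cells, and over CpGs 9 to 17, 3′ of them, it was 72.8% ± 0.889 (SD, n = 2) and 68.5% ± 3.32 (SD, n = 2). CpGs 1 and 2, 5′ of them, and CpGs 9 to 17 were set apart after the values were seen. CpGs 1 and 2 had means of 88.5% and 89.1%. CpG1 was the only CpG of CNS1 with a higher mean in TDG iKO cells, by 1.49 points. The highest level of CNS1 in TDG WT cells was that of CpG16 (position 53440339), 90.7% in library 1 and 89.9% and 90.1% in the runs of library 2 of TDG WT cells, against 84.2% in library 1 and 89.02% and 88.96% in the runs of library 2 of TDG iKO cells. Here both TDG iKO libraries were lower than both TDG WT libraries, with differences of -6.53 points in library 1 and -1.05 points in library 2.

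The promoter was lower in both TDG iKO libraries, by similar amounts. Its 4 CpGs (chr11:53432389-53432583, 5′ of the first exon) had means of 35.2% and 33.8% in TDG WT and 31.8% and 29.9% in TDG iKO cells. The groups did not overlap, and the difference was -3.37 points in library 1 and -3.93 points in library 2. The means were 34.5% ± 0.978 (SD, n = 2) for TDG WT against 30.8% ± 1.37 (SD, n = 2) for TDG iKO cells, and the difference of -3.65 points (95% interval -11.8 to 4.51) had an exact permutation p of 0.3333, again the smallest possible. Its interval, set by how far libraries of one group lie apart in all 22 libraries, included 0.

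The sequence with CpGs 18 to 21 is shown because 3 of its 4 CpGs were lower in both TDG iKO libraries than in both TDG WT libraries. The minus strand at chr11:53432415-53432522, 5′ to 3′ from mm9, with these CpGs in capitals, reads:
CpGs 18 to 21: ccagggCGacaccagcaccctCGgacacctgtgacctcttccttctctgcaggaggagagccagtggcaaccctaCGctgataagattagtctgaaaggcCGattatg
At CpG20 (position 53432447), the promoter CpG with the largest difference, the level was 44.3% in library 1 and 44.04% and 43.3% in the runs of library 2 of TDG WT cells, against 37.2% in library 1 and 38.6% and 36.4% in the runs of library 2 of TDG iKO cells. Both TDG iKO libraries were under both TDG WT libraries, with means of 43.97% ± 0.454 (SD, n = 2) for TDG WT against 37.4% ± 0.172 (SD, n = 2) for TDG iKO cells. The fitted difference was -6.59 points (95% interval -16.8 to 3.64). At CpG18 (position 53432516), the most methylated of the 4 in TDG WT cells, it was 47.5% in library 1 and 44.9% and 43.7% in the runs of library 2 of TDG WT cells, against 40.4% in library 1 and 40.5% and 39.3% in the runs of library 2 of TDG iKO cells. The libraries again did not overlap, and the fitted difference was -5.73 points (95% interval -16.1 to 4.59). CpG19 (position 53432501), chosen after its values were seen, had means of 24.6% ± 0.555 (SD, n = 2) and 22.2% ± 0.928 (SD, n = 2). CpG21 (position 53432422), the least methylated of the promoter in TDG WT cells, was at 24.6% in library 1 and 22.4% and 21.96% in the runs of library 2 of TDG WT cells, against 26.7% in library 1 and 21.3% and 19.6% in the runs of library 2 of TDG iKO cells. Its TDG iKO libraries lay on both sides of the TDG WT libraries.

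Exon 1 holds the 5′ UTR and the first codons of Il4. Over 6 CpGs of the exon 1 amplicon (chr11:53431960-53432290) the means were 73.3% and 70.2% in TDG WT and 70.9% and 66.2% in TDG iKO cells. Library 2 was the lower one in both genotypes, and library 1 of TDG iKO cells overlapped the TDG WT libraries. The difference was -3.22 points (95% interval -13.7 to 7.21), with an exact permutation p of 0.667, and it went to -0.846 points without library 2 of TDG iKO cells. The 6 CpGs had the fewest reads of those compared, down to 159 at a CpG in library 1 of TDG iKO cells and 77 in the TDG iKO sample labelled replicate 3, at CpG22, the only sample of the 6 under 100 at any of these CpGs.

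The largest difference in exon 1 was at CpG26 (position 53432034, coding), with 85.2% in library 1 and 81.3% and 81.02% in the runs of library 2 of TDG WT cells, against 81.3% in library 1 and 75.1% and 72.9% in the runs of library 2 of TDG iKO cells. The groups overlapped, since library 1 of TDG iKO cells lay between the TDG WT libraries, and the fitted difference was -5.92 points (95% interval -15.1 to 3.26). CpG22 (position 53432133, 5′ UTR), the most methylated of the 6 in TDG WT cells, was at 91.7% and 87.004% in TDG WT and 80.5% and 88.05% in TDG iKO libraries. Its difference changed sign between the libraries, from -11.2 to 1.04 points.

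CpGs 27 to 29 span the end of exon 1 and the start of intron 1 and are shown because CpGs 28 and 29 were the least methylated of their amplicons in TDG WT cells. The minus strand at chr11:53431916-53432013, 5′ to 3′ from mm9, with the 3 CpGs in capitals, reads:
CpGs 27 to 29: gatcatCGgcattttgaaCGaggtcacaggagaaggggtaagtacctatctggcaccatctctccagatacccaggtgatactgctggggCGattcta
Their mean was 44.4% and 43.6% in the TDG WT libraries and 40.99% and 41.3% in the TDG iKO libraries. The 3 CpGs did not share a pattern. CpG27 (position 53432007, coding) was at 53.8% in library 1 and 53.6% and 56.2% in the runs of library 2 of TDG WT cells, against 52.7% in library 1 and 46.6% and 47.2% in the runs of library 2 of TDG iKO cells. There the gap between genotypes was in library 2. CpG28 (position 53431995, coding) was at 41.2% in library 1 and 38.4% and 37.6% in the runs of library 2 of TDG WT cells, against 39.2% in library 1 and 39.8% and 36.7% in the runs of library 2 of TDG iKO cells, with overlapping groups and means of 39.6% ± 2.24 (SD, n = 2) for TDG WT against 38.7% ± 0.621 (SD, n = 2) for TDG iKO cells. CpG29 (position 53431923, intron 1) was at 38.2% in library 1 and 37.7% and 38.1% in the runs of library 2 of TDG WT cells, against 31.1% in library 1 and 38.8% and 38.9% in the runs of library 2 of TDG iKO cells. Apart from library 1 of TDG iKO cells, the samples of both genotypes lay close together there, and the fitted difference was -2.87 points (95% interval -14.8 to 9.04).

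The amplicon of intron 1 and exon 2 (chr11:53431630-53431948, 9 CpGs) was the only region with a higher mean in TDG iKO cells. The libraries were at 79.1% and 76.7% in TDG WT and 78.3% and 79.03% in TDG iKO cells. The difference was 0.771 points (95% interval -4.75 to 6.30), with an exact permutation p of 1, and -0.447 points without library 2 of TDG WT cells. Levels were higher in TDG iKO cells at 8 of 9 CpGs in library 2 but at 5 of 9 in library 1. The largest rise was at CpG35 (position 53431709, coding part of exon 2), where the level was 94.1% in library 1 and 89.6% and 88.6% in the runs of library 2 of TDG WT cells, against 94.8% in library 1 and 93.6% and 93.1% in the runs of library 2 of TDG iKO cells. Library 1 of TDG WT cells lay between the TDG iKO libraries there, and the fitted difference was 2.55 points (95% interval -2.87 to 7.97). The most methylated CpG of this amplicon in TDG WT cells, CpG34 (position 53431718, coding part of exon 2), had means of 91.7% ± 0.0327 (SD, n = 2) for TDG WT against 91.6% ± 1.92 (SD, n = 2) for TDG iKO cells.

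In intron 2, CpGs 38 to 42 lie in the 3′ part of HSII (chr11:53430150-53430347), a conserved enhancer. Their means were 69.01% and 68.8% in TDG WT and 66.96% and 69.996% in TDG iKO cells, so the TDG iKO libraries lay on both sides of the TDG WT libraries. The difference was -0.408 points (95% interval -9.22 to 8.41), with an exact permutation p of 1, and 1.11 points without library 1 of TDG iKO cells. In library 1, 4 of the 5 CpGs were lower in TDG iKO cells, and in library 2 all 5 were higher. CpG41 (position 53430188), with the largest difference of the region, was at 63.8% in library 1 and 65.3% and 63.4% in the runs of library 2 of TDG WT cells, against 58.4% in library 1 and 66.3% and 65.3% in the runs of library 2 of TDG iKO cells. Library 1 of TDG iKO cells again stood below all other samples. CpG39 (position 53430283), the least methylated of the 5, was at 51.2% ± 1.14 (SD, n = 2) for TDG WT against 52.5% ± 1.03 (SD, n = 2) for TDG iKO cells, and CpG40 (position 53430272), the most methylated in TDG WT cells, at 78.9% ± 1.46 (SD, n = 2) and 78.6% ± 0.491 (SD, n = 2).

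Exon 3 stayed methylated in both genotypes, near the upper end of the scale, where the spread is compressed, so it gives no measure of the variation at intermediate levels. Its 5 CpGs (chr11:53427375-53427537) had means of 95.97% and 95.7% in TDG WT and 95.9% and 95.7% in TDG iKO cells. The difference was -0.0360 points (95% interval -1.21 to 1.14), with an exact permutation p of 1. All levels of the 4 libraries lay between 95.01% and 97.02%. CpGs 44 to 47 are shown to set a fully methylated stretch beside those above. The minus strand at chr11:53427393-53427438, 5′ to 3′ from mm9, with these CpGs in capitals, reads:
CpGs 44 to 47: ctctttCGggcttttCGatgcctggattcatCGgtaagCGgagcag
CpGs 44 to 46 are coding, and CpG47 (position 53427400) lies in intron 3. CpG47 had the largest difference, with 95.998% in library 1 and 95.7% and 95.9% in the runs of library 2 of TDG WT cells, against 95.5% in library 1 and 95.2% and 94.9% in the runs of library 2 of TDG iKO cells. Both TDG iKO libraries were lower than both TDG WT libraries, by less than a point. CpG44, the least methylated of the 5 in TDG WT cells, had a difference of -0.276 points, CpG45, the most methylated, of 0.300 points, and CpG43 the largest rise, 0.545 points.

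CNS2 (chr11:53418901-53419662) was read in library 1 only, so its values carry no replicate check and were compared only between these 2 libraries. The mean over its 17 CpGs was 7.71% in TDG WT and 7.30% in TDG iKO cells, and naïve cells had 12.9%. CpGs 48 to 51, at its 5′ end, were at a mean of 29.02% and 26.8%, all 4 lower in TDG iKO cells. CpG48 (position 53419636), the only highly methylated CpG of CNS2, was at 78.3% (95% Wilson interval 77.3 to 79.2, 6833 reads) in TDG WT and 74.3% (95% Wilson interval 72.9 to 75.6, 4168 reads) in TDG iKO cells. This was the largest difference in CNS2, -4.002 points, and Fisher's exact test on the reads of these 2 libraries, which covers counting error only, gave adjusted p = 2.05e-05. Of the 17 CpGs it also called CpGs 49, 51 and 59, all lower in TDG iKO cells. CpGs 52 to 62 were low in 5mC + 5hmC in both libraries, with means of 0.763% and 0.556%. Within them CpG59 was at 2.57% (1089 reads) in TDG WT and 0.377% (530 reads) in TDG iKO cells, the latter under 3 reads with C. CpG62 was at 2.02% (198 reads) and 3.67% (109 reads). The lowest value in TDG WT cells, that of CpG61 (position 53419165), was 1 of 1102 reads, and TDG iKO cells had 2 of 536. Both are under 3 reads, the smallest count taken as a signal, so CpGs near 0 cannot be ranked. CpG54 (position 53419334), chosen after its values were seen, had 0 of 456 reads with C in TDG iKO cells, where 3 reads would make 0.658%. CpGs 55, 56 and 58 were also at 0 in TDG iKO cells. CpG63 (position 53419056) was highest in TDG iKO relative to TDG WT cells, with 5.97% (95% Wilson interval 3.45 to 10.1, 201 reads) in TDG WT and 9.73% (95% Wilson interval 5.52 to 16.6, 113 reads) in TDG iKO cells. The intervals overlapped at this depth.

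**Figure D2:**
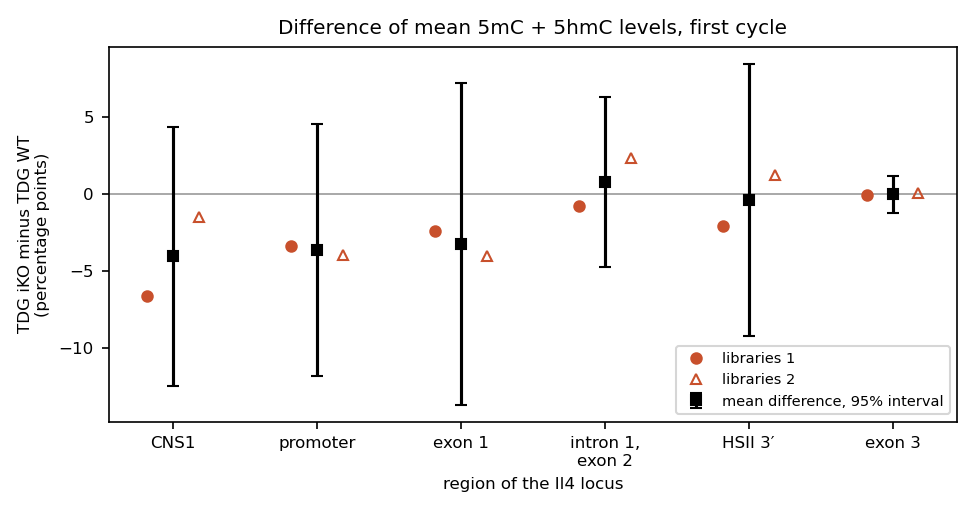
Difference of the mean 5mC + 5hmC level, TDG iKO minus TDG WT (y axis, percentage points), in 6 regions of the Il4 locus (x axis). Squares are differences of the means of 2 libraries with 95% intervals from the spread over 22 libraries (21 in exon 1), and circles and triangles are the differences between libraries 1 and between libraries 2. All 6 intervals include 0, and the differences of libraries 1 and 2 have opposite signs in intron 1 and exon 2, HSII and exon 3.

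Libraries of 1 genotype also differed from each other. The median absolute difference was 2.40 points between genotypes, 2.35 points between the 2 TDG WT libraries and 2.48 points between the 2 TDG iKO libraries. The first of these compares means of 2 libraries, which vary less than the single libraries in the others, so they are not on the same scale. Between the runs of a library it was 0.784 points in TDG WT and 0.848 points in TDG iKO cells. Runs of a library thus lay closer together than separate libraries. A two-sided Fisher's exact test at each CpG, adjusted for the number of CpGs, called 1 of 47 CpGs (2.13%) between the TDG WT runs and 1 of 45 (2.22%) between the TDG iKO runs. It takes reads as independent, although several can stem from 1 molecule, so its calls set differences against counting error only and are no test of samples or genotypes. Between the TDG WT libraries it called 15 of 46 (32.6%), and between the TDG iKO libraries 20 of 46 (43.5%).

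Between genotypes the same test called 20 of 63 CpGs (31.7%) in libraries 1, with CNS2 included, and 34 of 47 (72.3%) in libraries 2, which had more reads. In libraries 1 all 20 called CpGs were lower in TDG iKO cells, whereas in libraries 2, 19 were lower and 15 higher. Of the 46 CpGs with reads in both, 16 were called in libraries 1 and 34 in libraries 2. Both pairs shared 10 calls, 7 of them lower in both and 3 in opposite directions. With so many calls in each pair an overlap arises without any link, and whether this one was larger was not tested. The 7 were CpGs 4, 7, 11, 13 and 16 of CNS1 and CpGs 18 and 20 of the promoter. At these CpGs the direction was shared by both pairs of libraries, but the fit across libraries gave adjusted p-values of 0.988 or more.

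Both genotypes had less methylation than naïve cells. The same fit called 28 of 40 CpGs (70%) lower in TDG WT cells and 29 of 40 (72.5%) lower in TDG iKO cells, and 0 higher in either. These comparisons share the 3 naïve libraries, and exon 1 was not tested because a naïve library had too few reads there. The study describes its naïve cells as wild type, and the series holds no library of naïve TDG iKO cells. The starting level of TDG iKO cells was thus not measured, and their falls are given from these naïve libraries. CNS1 fell from 92.7% ± 0.550 (SD, n = 3) by 22.6 points in TDG WT and by 26.7 points in TDG iKO cells. In CNS1, 15 of 17 CpGs were called in TDG WT and 16 in TDG iKO cells, and in the promoter 2 and 3 of 4. In intron 1 and exon 2 the numbers were 6 and 5 of 9, in HSII 5 and 5 of 5, and in exon 3 0 and 0 of 5. The largest fall was at CpG29 in both, -52.8 points (95% interval -62.2 to -43.4) in TDG WT and -55.7 points (95% interval -65.02 to -46.3) in TDG iKO cells, with adjusted p = 8.23e-08 and adjusted p = 3.42e-08. CpG20 of the promoter was -6.76 points (95% interval -16.6 to 3.07) from naïve cells in TDG WT (adjusted p = 0.194) and -13.4 points (95% interval -23.1 to -3.60) in TDG iKO cells (adjusted p = 0.0149). Its call in TDG iKO cells alone does not make it a difference between the genotypes, since the direct comparison above did not pass the test.

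After a second cycle the genotypes differed by -2.66 points in CNS1, 3.28 in the promoter, -1.45 in exon 1, 4.53 in intron 1 and exon 2, 3.12 in HSII and 0.478 in exon 3. CNS1 was at 25.1% ± 5.35 (SD, n = 2) for TDG WT against 22.4% ± 1.55 (SD, n = 2) for TDG iKO cells, and the promoter at 24.1% ± 0.887 (SD, n = 2) and 27.4% ± 2.68 (SD, n = 2). Intron 1 and exon 2 were at 53.4% ± 3.57 (SD, n = 2) for TDG WT against 57.9% ± 1.77 (SD, n = 2) for TDG iKO cells, and HSII at 26.2% ± 2.76 (SD, n = 2) and 29.3% ± 0.755 (SD, n = 2). In the promoter, in intron 1 and exon 2 and in HSII both TDG iKO libraries of the second cycle lay above both TDG WT libraries. In the promoter the difference thus went from -3.65 points after the first cycle to 3.28 points after the second. Tested at each CpG, the difference between genotypes did not differ between cycles past the threshold: 0 of 46 CpGs (0%) were called by the quasi-binomial fit, 0 by limma, and 0 had an unadjusted p under 0.05. The smallest adjusted p was 0.978. CpG18 changed by 11.3 points (95% interval -3.06 to 25.7) between cycles, the CpG with the smallest unadjusted p.

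The first-cycle difference in the TET line was of another size. There CNS1 was at 90.5% ± 0.0513 (SD, n = 2) in TET iTKO and 56.1% ± 0.0276 (SD, n = 2) in TET WT cells, and the promoter at 55.7% ± 2.50 (SD, n = 2) and 25.8% ± 2.94 (SD, n = 2). The difference between TET iTKO and TET WT cells was called larger than that between TDG iKO and TDG WT cells at 29 of 46 CpGs (63%) and called smaller at 0. Without regard to the threshold, it was larger at 42 and smaller at 4, all 4 of them in exon 3. CNS1 held 16 of the 29 calls (17 CpGs tested), the promoter 4 (4 tested), exon 1 5 (6 tested), intron 1 and exon 2 3 (9 tested), HSII 1 (5 tested) and exon 3 0 (5 tested). The largest was at CpG29, 62.5 points (95% interval 47.2 to 77.8), adjusted p = 7.85e-06. At CpGs 18 and 20 of the promoter the libraries of TDG WT and TDG iKO cells did not overlap. There the difference was larger in the TET line by 42.1 points (95% interval 27.9 to 56.3) and 33.6 points (95% interval 19.2 to 47.99).

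First-cycle WT cells of other sets lay on both sides of TDG WT cells. TDG WT cells were higher than TET WT cells in CNS1, by 13.95 points, and in the promoter, by 8.71 points. Another set of WT Th2 cells with the same culture in the labels was at 78.99% ± 6.61 (SD, n = 3) in CNS1 and 38.1% ± 8.26 (SD, n = 3) in the promoter, and TDG WT cells differed from it by -8.91 and -3.66 points. In the fit TDG WT cells were called higher than TET WT cells at 8 of 46 CpGs (17.4%), all in CNS1, and lower at 0. The largest difference was at CpG4, 18.6 points (95% interval 7.65 to 29.6), adjusted p = 0.0365. These calls rest on every library: leaving out any 1 of the 4 leaves 1 library in a group, and the calls were not kept. The largest difference, as a fraction of reads, was 0.187 to 0.211 in these fits, against 0.186 with all 4. Limma on log2 ratios called 0, while a replicate block fitted on the 4 libraries alone called 29. The library numbers do not establish pairing. In library 2 of TET WT cells 5 CpGs had counts at the upper limit of the deposited counts. Library 2 of TET iTKO cells, compared above, had 9 such CpGs, among them CpGs 14 to 17 of CNS1. WT cells of the TDG and TET lines thus lay farther apart in CNS1 than TDG WT and TDG iKO cells, which differed by -4.05 points.

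Pyridine borane sequencing (PB-seq) of first-cycle TDG WT and TDG iKO cells reads 5fC and 5caC, the substrates of TDG, as T and all other cytosines as C. There was 1 library per genotype with 2 runs, and 47 CpGs, without CNS2, had 100 or more reads in all 4 samples. The 5fC + 5caC level, the percentage of reads with T after weighting reads with C by 0.5 to make up for reads of the opposite strand, as in the methods of the study, averaged 0.491% and 0.330% in the runs of TDG WT and 1.55% and 1.39% in those of TDG iKO cells. Both runs of TDG iKO cells exceeded both runs of TDG WT cells at 34 of 47 CpGs and were below at 4. Levels over 1% (mean of the runs) were found at 22 CpGs in TDG iKO and at 0 in TDG WT cells. The share of T at cytosines outside CpGs (without the factor) was 0.177% and 0.0968% in the TDG WT runs and 0.172% and 0.0924% in the TDG iKO runs, nearly the same in both genotypes run by run. With 1 library per genotype, these are values without a test.

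The regions differed in this rise. The mean went from 0.471% in TDG WT to 2.20% in TDG iKO cells in CNS1, from 0.746% to 2.19% in the promoter and from 0.248% to 1.39% in exon 1. In intron 1 and exon 2 it went from 0.386% to 1.04%, mostly through CpG29, and both iKO runs exceeded both WT runs at 4 of 9 CpGs. In HSII it went from 0.343% to 0.426% and in exon 3 from 0.272% to 0.353%. With the factor, the T share outside CpGs was 0.342% and 0.185% in the TDG iKO runs. HSII, less methylated in both genotypes than in naïve cells, and exon 3, which was not, lay closer to this background than the other regions. In the TDG iKO runs HSII was at 0.466% and 0.387% and exon 3 at 0.430% and 0.276%. Both iKO runs exceeded both WT runs at 3 of the 5 CpGs of HSII and were below at 2. The highest level was that of CpG28, 0.473% and 0.512% in the runs of TDG WT cells and 5.97% and 5.50% in those of TDG iKO cells. In CNS1 it was that of CpG7 (position 53440602), chosen after its values were seen, with 0.869% and 0.393% in the runs of TDG WT cells and 5.32% and 4.67% in those of TDG iKO cells. CpG29 was at 0.966% and 0.703% in the runs of TDG WT cells and 4.70% and 5.15% in those of TDG iKO cells. At CpG28 and CpG29, 5mC + 5hmC differed between genotypes by -0.902 and -3.07 points.

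**Figure D3:**
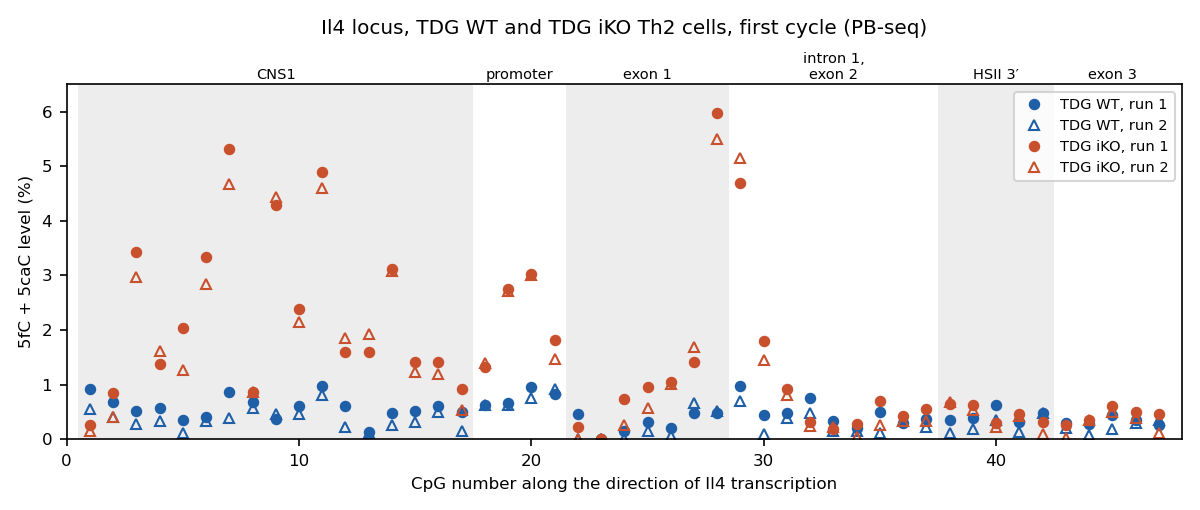
Levels of 5fC + 5caC by PB-seq (y axis, %) at CpGs 1 to 47 (x axis) in TDG WT (blue) and TDG iKO (red) Th2 cells after the first cycle, each point 1 run of the single library per genotype. Points of TDG WT cells stay under 1%, and those of TDG iKO cells reach 5.97% at CpG28 and are near those of TDG WT cells in HSII and exon 3.

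Across the 46 CpGs measured by both assays, CpGs with a larger gain of 5fC + 5caC in TDG iKO cells had lower 5mC + 5hmC in TDG iKO relative to TDG WT cells (Pearson r = -0.542, Spearman rho = -0.629, n = 46 CpGs). The 5fC + 5caC level of TDG iKO cells was also higher at CpGs with a lower 5mC + 5hmC level in TDG WT cells (Pearson r = -0.640, Spearman rho = -0.710, n = 46 CpGs). These describe CpGs of the same few libraries, which share amplicons and depth and are not independent. By region, the gain of 5fC + 5caC and the difference in 5mC + 5hmC were 1.73 and -4.05 points in CNS1, 1.44 and -3.65 points in the promoter and, over its same 6 CpGs, 1.33 and -3.22 points in exon 1. They were 0.650 and 0.771 points in intron 1 and exon 2, 0.0831 and -0.408 points in HSII and 0.0814 and -0.0360 points in exon 3. Region means join unlike CpGs: in intron 1 and exon 2 the gain was mostly at CpG29 (4.09 points), which was lower in 5mC + 5hmC, and in exon 1 at CpG28 (5.25 points), where 5mC + 5hmC differed by -0.902 points. Since 5fC and 5caC count as T in BS-seq, a gain in them at the cost of 5mC + 5hmC lowers the BS-seq level, but how much of these differences it makes up was not tested.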

How the data were processed

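The deposited counts were used: the authors mapped paired-end reads to mm9 with BSMAP (version not given; -w 2 -q 30, with -v 5 in BS-seq but -v 0 in PB-seq) and counted, at each cytosine, reads with C and reads with C or T, without normalization. Amplicons came from the primers of the study and CpGs from the minus strand of mm9. A level needs 100 or more reads, and a share below that of 3 reads cannot be seen at a given depth. Wilson intervals, Fisher's exact tests and this limit cover counting error only. The count limit of 65535 was not reached in the 6 samples compared, but was in 6 samples of the other groups.

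CpGs were tested with a quasi-binomial regression, fitted by weighted least squares to the levels of 22 libraries in 10 groups. Weights came from the reads and 1 estimate of the variance between libraries for all CpGs. Dispersions were moderated with limma 3.58.1 (squeezeVar, not below 1). Two-sided t-tests of each contrast were followed by Benjamini-Hochberg adjustment over the CpGs tested. The fit was tested on simulated data with less variance between libraries than these data hold. Region means were compared with exact permutation tests, two-sided, which with 2 against 2 cannot go below p = 0.3333. Their intervals come from the spread over the 22 libraries, or 21 in exon 1, where a naïve library had too few reads. Since the labels do not name animals, p-values measure the spread between these samples. Fisher's exact tests between the libraries of 1 genotype were added after seeing the data.

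Named CpGs are, per region, the largest difference, the lowest and highest in TDG WT cells, CpGs 27 to 29, 38 to 42 and 48 to 51, which the study names, CpGs 52 to 62 and 63 of CNS2, and the extremes among called CpGs. Others are said to be chosen after their values were seen. Members and lists were chosen with earlier results of these data known. Alternatives were coverage minima, limma on log2((C + 1)/(T + 1)), a replicate block, treatments of the runs, correction for non-CpG cytosines and leaving out each library. Computations used Python 3.11.15, numpy 2.4.6, scipy 1.17.1, pandas 2.3.3, matplotlib 3.10.9 and R 4.3.3.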

Additional observations from a re-analysis of the deposited data

How the results depend on the processing

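The count of 0 CpGs called between TDG iKO and TDG WT cells held under all 16 alternatives (smallest adjusted p from 0.531 to 0.994), with coverage minima of 20 reads (47 CpGs tested) and 500 reads (27 tested), limma, the runs treated as separate, summed or single, and each library left out. The change between cycles stayed at 0 in all 12. Where a left-out library leaves 1 a side, the lone library is assumed to vary like the other groups. Leaving out single libraries moved the differences of region means more than any other alternative, to -6.99 to -1.12 points in CNS1, -4.62 to -2.68 in the promoter, -5.60 to -0.846 in exon 1, -0.447 to 1.99 in intron 1 and exon 2, -1.93 to 1.11 in HSII and -0.185 to 0.113 in exon 3, so the sign of the last 3 depends on the libraries used. With 2 libraries a side these shifts are under 1 SD by construction, so the ranges do not show stability. Exon 1 could not be computed with only the run labelled replicate 3 or with separate runs, because CpG22 had 77 reads in that run, nor with 500 reads, because libraries 1 had fewer at all its CpGs. The larger difference in the TET line was called at 12 CpGs with a minimum of 500 reads (fewer CpGs tested) and at 27 to 30 without single libraries, against 29. TDG WT against TET WT cells gave 0 calls with limma, against 8, and the calls were not kept without any single library. The largest difference, as a fraction of reads, was 0.187 to 0.211 without single libraries, against 0.186. The cause of the lost calls was not tested. Against naïve cells, a minimum of 500 reads left 18 CpGs to test and gave 7 calls in TDG WT and 9 in TDG iKO cells. Leaving out a naïve library gave 26 to 32 and 29 to 34, against 28 and 29. The upper counts came without naïve library 2, where 46 CpGs were tested instead of 40. Leaving out a TDG library leaves 1 in its group. The largest fall, as a fraction of reads, was then -0.529 to -0.526 in TDG WT and -0.597 to -0.520 in TDG iKO cells. Fits with a replicate block, which also held only the 4 or 8 libraries compared instead of 22, called 0 CpGs between TDG iKO and TDG WT cells, 0 between cycles, 31 for the TET line and 29 between the WT sets (against 8), so for the last 3 the effect of the block alone was not tested. Between TDG iKO and TDG WT cells the 4 libraries without the block also gave 0. For region means the block gives the same differences by construction. Deviations of same-numbered libraries correlated across CpGs (r = 0.592, n = 46 CpGs), but with 2 pairs the numbers do not establish pairing. Depth limits exon 1, and CNS2 had a single library per genotype.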
